A study of Mus musculus with 6 samples.

Results

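The genes described here are p53 (Trp53), its inhibitor Mdm2 and 8 stress genes that p53 is known to activate (Ccng1, Bax, Trp53inp1, Bbc3, Phlda3, Sesn2, Eda2r and Zmat3). They were chosen by gene symbol, and all 10 were found among the 54532 gene rows of the expression table. RNA sequencing measured them in neurospheres, which are floating spheres of cultured neural progenitors, from the hippocampus of C57BL/6 mice at postnatal day 0. They were fed EGF and FGF-2, both at 20 ng/ml, and collected on day 7 of culture. Of the 6 libraries, 3 are labelled CTRL (genotype hGFAPCre+, Fgf13+/y) and 3 FGF13cko (genotype hGFAPCre+, Fgf13 flox/y), the controls being littermates. Both groups thus carry the Cre transgene, which the human GFAP promoter drives in neural progenitors and astrocytes, and differ in whether their single Fgf13 allele is intact or floxed.

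The protein p53 is a transcription factor that cells keep at a low level, because Mdm2, a ubiquitin ligase, marks it for degradation. DNA damage and other stresses release p53 from Mdm2, and p53 then activates genes of growth arrest, cell death, DNA repair and metabolism, as well as Mdm2 itself, which closes a negative feedback loop. Its activity is set mainly at the level of the protein, so target transcripts are commonly read as its output, although most of them also answer to other factors. In neural progenitors p53 is known to limit self-renewal and to mediate the loss of damaged cells.

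A known p53 binding site is a pair of decamers, each called the p53 half-site. The RefSeq promoter windows (GRCm38.p6), which run from 250 bases before to 50 bases after a transcription start, held 10 windows for 8 of the 10 genes. Zmat3 and Trp53inp1 had none. The half-site consensus is a palindrome, so searching 1 strand covers both. It was present without mismatch in 4 of these 10 windows and in 8.36% of all 32851 windows. A looser pair, with up to 3 mismatches in all, intact central bases and 0 to 13 bases between the decamers, was present in 3 of the 10 windows and in 6.72% of all windows. The windows of Ccng1, Mdm2, Bax and Bbc3 are shown because they hold such letters in 4 targets whose transcripts differed in their change. Capitals mark the perfect half-site, and in Bax and Bbc3 both decamers of the best pair.
Ccng1 (chr11:40755237-40755536, minus strand): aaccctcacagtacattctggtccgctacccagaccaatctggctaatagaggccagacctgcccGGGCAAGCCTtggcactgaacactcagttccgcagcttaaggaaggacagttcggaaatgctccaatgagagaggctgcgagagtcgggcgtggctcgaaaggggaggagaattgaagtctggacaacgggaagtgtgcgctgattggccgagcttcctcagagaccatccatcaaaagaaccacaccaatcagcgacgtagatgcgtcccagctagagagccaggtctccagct
Mdm2 (chr10:117710709-117711008, minus strand): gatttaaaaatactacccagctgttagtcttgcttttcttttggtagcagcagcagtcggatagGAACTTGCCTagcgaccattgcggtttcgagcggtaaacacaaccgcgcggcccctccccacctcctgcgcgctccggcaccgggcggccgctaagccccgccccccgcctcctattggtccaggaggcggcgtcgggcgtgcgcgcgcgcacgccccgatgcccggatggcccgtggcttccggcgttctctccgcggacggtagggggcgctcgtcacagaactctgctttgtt
Bax (chr7:45466849-45467148, minus strand): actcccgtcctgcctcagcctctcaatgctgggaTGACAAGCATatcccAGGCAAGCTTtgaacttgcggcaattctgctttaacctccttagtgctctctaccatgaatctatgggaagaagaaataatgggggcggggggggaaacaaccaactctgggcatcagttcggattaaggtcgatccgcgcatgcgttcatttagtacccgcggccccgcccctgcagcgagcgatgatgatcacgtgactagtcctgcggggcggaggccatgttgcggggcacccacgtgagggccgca
Bbc3 (chr7:16309333-16309632, plus strand): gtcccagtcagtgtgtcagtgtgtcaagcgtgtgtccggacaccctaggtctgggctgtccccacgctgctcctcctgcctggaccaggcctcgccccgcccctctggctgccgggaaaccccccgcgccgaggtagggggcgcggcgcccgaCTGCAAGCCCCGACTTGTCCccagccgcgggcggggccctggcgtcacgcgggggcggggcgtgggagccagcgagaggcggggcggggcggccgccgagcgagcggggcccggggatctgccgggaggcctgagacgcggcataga

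In the Bax window the decamers lie 5 bases apart with 2 mismatches in all, and in the Bbc3 window they adjoin with 3 mismatches. The window of Trp53 itself also held a perfect half-site, and the first of 2 windows of Cdkn1a, the classical arrest target, held a pair without mismatch, 12 bases apart. The windows of Phlda3, Sesn2 and Eda2r and the other two Bbc3 windows held no match, which says only that these letters are not in those 300 bases.

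Values are normalized counts, that is reads divided by a size factor per library, and tests were run on log2(normalized count + 1). The Trp53 transcript did not pass the test between the groups. Mdm2, Ccng1, Phlda3 and Sesn2 rose in FGF13cko by 1.70- to 1.85-fold. Bax, Trp53inp1 and Eda2r were higher in each FGF13cko library than in each CTRL library without passing, Bbc3 was lower in the same way, and the groups overlapped for Zmat3. Of 34 other p53 targets tested, 9 rose and 2 fell, beside 7.55% and 7.08% of all genes. The 9 included 5 of 10 genes of cell death, and the 2 were both genes of repair and metabolism.

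By the limma test across 16852 genes (Benjamini-Hochberg adjusted p under 0.05), 4 of the 10 genes were higher in FGF13cko, where 7.55% of all tested genes were. None was lower, against 7.08% of all genes. At an unadjusted limma p under 0.05, 1 of the 10 (Bbc3) was lower, against 15.1% of all genes, and by DESeq2 also 1 (11.7%), while edgeR called 0 (7.86%). The values of the groups did not overlap for 7 genes that were higher and 1 that was lower, where 20.6% and 18.7% of all genes were higher and lower without overlap. The median log2 change of the 10 genes was 0.40, beside 0.02 over all tested genes. All 10 passed the filter on low values, each with at least 5328 reads over the CTRL libraries.

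The libraries held 22191718 to 24531400 assigned reads. Both libraries numbered 3 stood apart from the others of their group, with 4.05% and 4.14% of reads from mitochondrial genes against 1.46% to 2.36%, so results are given with and without them. Fgf13, the targeted gene, was at 469 ± 188 normalized counts in CTRL and 257 ± 67.8 in FGF13cko (SD, n = 3 each), with CTRL 3 (276) inside the FGF13cko range, and its log2 change of -0.81 did not pass (limma adjusted p = 0.134). Summed levels of progenitor markers were 102296 to 115350 in CTRL and 158672 to 170651 in FGF13cko, with every marker detected. Of the 6 single markers, however, none was called higher and 3 were called lower, beside 7.55% and 7.08% of all genes. Their median log2 change was -0.11, so the higher sum does not describe the markers singly. Of oligodendrocyte markers 1 of 5 was lower (21118 to 28528 against 20741 to 28035), beside 7.08% of all genes. Some markers of other cell types also differed, where 7.55% of all genes were called higher. For neurons 3 of 5 were higher (summed level 16463 to 21502 against 25906 to 34057). For endothelial cells 1 of 3 was higher (31.4 to 50.3 against 74.4 to 175). For mural cells and fibroblasts 1 of 3 tested was higher (235 to 389 against 751 to 2353). Of microglial markers 1 of 4 tested was higher (46.3 to 65.7 against 89.9 to 185), and Lum, a fibroblast marker, was at 0 in each CTRL library. All 5 neuron markers were higher in each FGF13cko library than in each CTRL library, where 20.6% of all genes were. Of the neuron markers none was called without CTRL 1 or without FGF13cko 2 and 1 without FGF13cko 3 or without the mean-variance trend. Over all genes 391 of 16905, 193 of 16875, 431 of 16814 and 1028 of 16852 were called higher in these fits. The single oligodendrocyte, endothelial, mural and microglial calls were each lost without FGF13cko 2, where 193 genes were higher and 276 lower of 16875. The endothelial call was also lost without FGF13cko 1, and the mural call without CTRL 1. The microglial call was lost by edgeR and without any single library other than CTRL 3. The part of these cell types in the results on p53 targets was not tested. In bulk RNA, fewer cells of a type and less RNA per cell cannot be told apart.

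**Figure D1:**
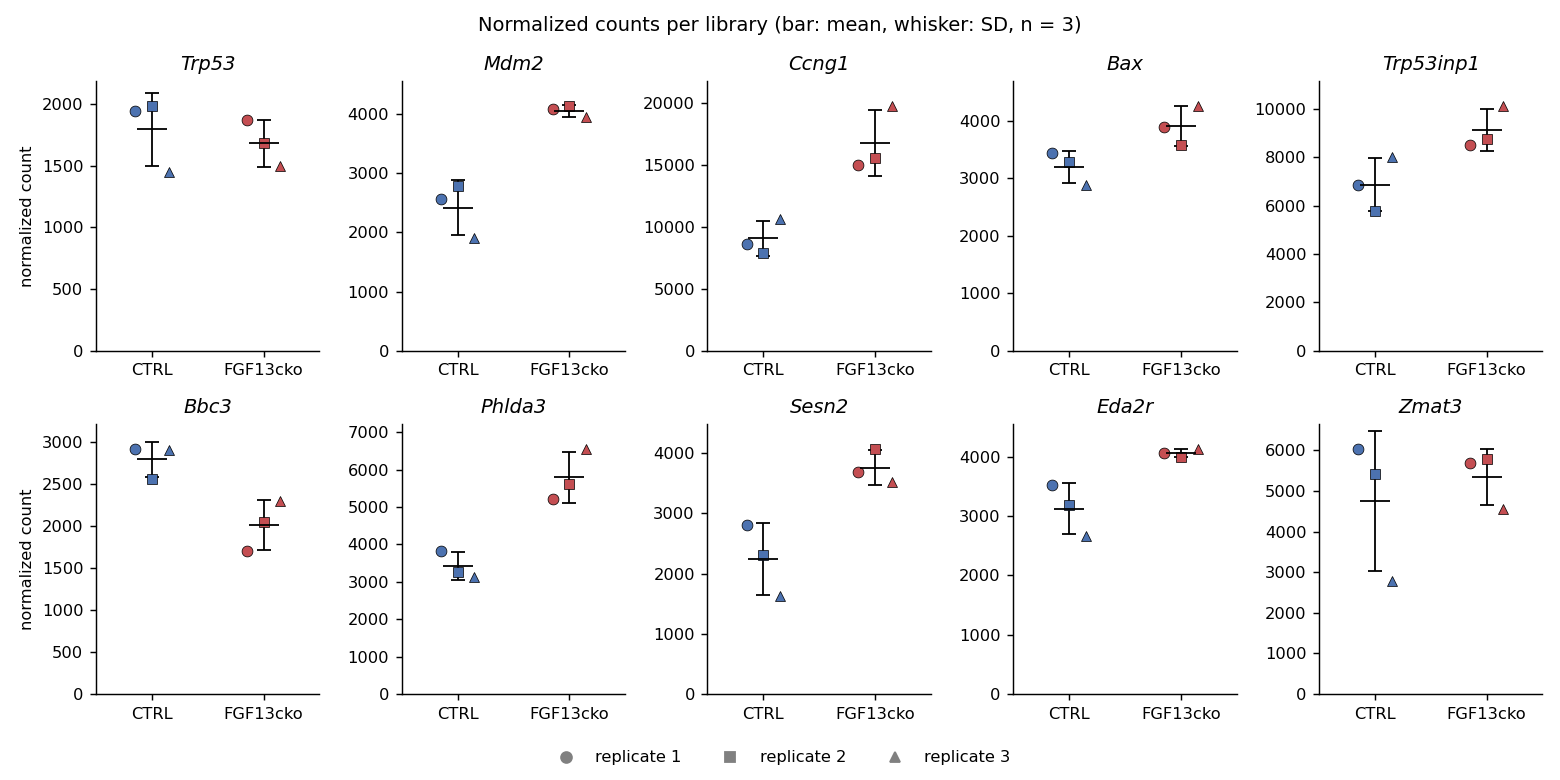
Normalized counts (vertical axes, starting at 0) of the 10 genes in each of the 3 CTRL and 3 FGF13cko libraries, with symbols for the replicate number, a bar at the mean and whiskers of 1 SD. Mdm2, Ccng1, Phlda3 and Sesn2 lie higher in every FGF13cko library, Bbc3 lies lower, and the groups overlap for Trp53 and Zmat3.

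Trp53 (ENSMUSG00000059552, chromosome 11, 69580359 to 69591873, plus strand, GRCm38) had normalized counts of 1946, 1990 and 1454 in CTRL 1, 2 and 3, and of 1876, 1683 and 1496 in FGF13cko 1, 2 and 3. The 2 libraries numbered 3 were the lowest of their groups, and the groups overlapped. The log2 change was -0.08 (SE 0.17, 95% interval -0.48 to 0.31, limma adjusted p = 0.768), so a rise of the transcript as large as that of Mdm2 lies outside the interval. The protein and its modifications were not measured. Over the 6 libraries the profiles closest to that of Trp53 among 11333 other genes were those of Hnrnpl (r = 0.999), Nup205 (r = 0.999) and Slc7a6 (r = 0.998), all low in both libraries numbered 3. In all, 440 genes had r of at least 0.95 with Trp53, so such likeness is common over 6 libraries.

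Mdm2 (ENSMUSG00000020184, chromosome 10, 117688875 to 117710758, minus strand) is the ligase of the feedback loop. It was at 2562, 2790 and 1900 normalized counts in CTRL and at 4083, 4146 and 3945 in FGF13cko. The FGF13cko libraries lay close together and above all of CTRL, among which CTRL 3 was the lowest. The mean rose from 2417 ± 462 to 4058 ± 103 (SD, n = 3 each). On the log2 scale Mdm2 was higher by 0.77 ± 0.17 (SE), with a limma adjusted p of 0.0243.

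Ccng1 (ENSMUSG00000020326, chromosome 11, 40748552 to 40755311, minus strand) encodes cyclin G1, which recruits the phosphatase PP2A to Mdm2. It was at 8615, 7916 and 10671 normalized counts in CTRL and at 14971, 15551 and 19799 in FGF13cko. Here the libraries numbered 3 were the highest of their groups, the opposite of Mdm2 in CTRL, and the groups did not overlap. The log2 change was 0.89 (SE 0.19, limma adjusted p = 0.0218), the largest of the 10 genes. The genes with the nearest profiles were Tmem38a, Tram1l1 and Prex2 (r = 0.997, 0.995 and 0.994 over 6 libraries), each also higher in FGF13cko.

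Phlda3 (ENSMUSG00000041801, chromosome 1, 135766119 to 135769136, plus strand), a small pleckstrin homology protein that restrains Akt, was at 3838, 3270 and 3127 normalized counts in CTRL. It stood at 5222, 5604 and 6561 in FGF13cko, above every CTRL library. The log2 change was 0.76 (SE 0.16, limma adjusted p = 0.0186).

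Sesn2 (ENSMUSG00000028893, chromosome 4, 132492032 to 132510501, minus strand) encodes sestrin 2, a leucine sensor that restrains mTORC1 and is also activated by the stress factor ATF4. It was at 2815, 2308 and 1622 normalized counts in CTRL and at 3693, 4076 and 3521 in FGF13cko. CTRL spread widely, with CTRL 3 the lowest, and still lay below FGF13cko. The log2 change was 0.78 (SE 0.21, limma adjusted p = 0.0436), the call nearest the threshold among the 4. Of 7 ATF4 pathway genes, none rose (0 also at an unadjusted limma p under 0.05, by edgeR and by DESeq2) and 6 fell (median log2 change -1.07). These were Trib3 (-1.92), Ddit4 (-1.65), Chac1 (-1.12), Asns (-1.07), Ddit3 (-0.83) and Atf5 (-0.80), with limma adjusted p of 0.00325 to 0.0265, while Atf4 itself was at 0.01. The 6 calls, beside 7.08% of all genes lower, became 4 without CTRL 1 and 3 without FGF13cko 2. In those fits 341 of 16905 and 276 of 16875 genes were lower. Whether ATF4 had a part in the rise of Sesn2 was not tested.

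Each of the 4 calls depended on single libraries, as did the number of calls over all genes. Without CTRL 3 all 4 passed (limma adjusted p = 0.00344 to 0.0170), where 2228 of 16594 genes were called higher. Without FGF13cko 2 or FGF13cko 3 none of the 10 genes passed, with limma adjusted p for these 4 of 0.0836 to 0.166 and 0.0691 to 0.101 and log2 changes of 0.67 to 0.94. Without CTRL 1 only Phlda3 passed, without CTRL 2 only Mdm2, and without FGF13cko 1 only Phlda3. Over all genes, 193 of 16875 were called higher without FGF13cko 2 and 431 of 16814 without FGF13cko 3. The same count was 391 of 16905 without CTRL 1, 839 of 16916 without CTRL 2 and 775 of 16924 without FGF13cko 1. Without both libraries numbered 3, 6 of the 10 were higher (18.9% of all genes in that fit) and 1 lower (18.4%). The log2 changes of the 4 genes were then 0.61 to 0.89 with limma adjusted p of 6.2e-05 to 0.00215.

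Bax and Bbc3 belong to the BCL2 family and act at mitochondria in cell death, Bax as a pore-forming effector and Bbc3 (PUMA) as a BH3-only activator. Bax (chromosome 7, 45461697 to 45466898, minus strand) was at 3436, 3286 and 2893 normalized counts in CTRL and at 3895, 3582 and 4270 in FGF13cko. The groups were separate by a narrow margin, and the log2 change of 0.29 (SE 0.14) did not pass (limma adjusted p = 0.205). Bbc3 (chromosome 7, 16308393 to 16318205, plus strand) was at 2919, 2554 and 2905 in CTRL and at 1704, 2045 and 2297 in FGF13cko. Each FGF13cko library lay below all of CTRL, and the change of -0.48 (log2, SE 0.16) had a limma adjusted p of 0.0768. With the replicate number as a block, Bbc3 passed (limma adjusted p = 0.0266), as it did by DESeq2 (adjusted p = 0.0337) and without both libraries numbered 3 (limma adjusted p = 0.00413). Among the 10 genes Bbc3 was the only one whose FGF13cko values all lay below those of CTRL.

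Trp53inp1, Eda2r and Zmat3 were the remaining targets. Trp53inp1 (chromosome 4, 11156431 to 11174379), a nuclear protein of stress signalling and autophagy, was at 6831, 5780 and 7991 normalized counts in CTRL and at 8489, 8747 and 10131 in FGF13cko. Its groups did not overlap, and its rise of 0.42 (log2) missed the threshold (limma adjusted p = 0.141). It passed under the replicate block (limma adjusted p = 0.0413), where 16.2% of all genes were higher. It also passed without CTRL 3 (limma adjusted p = 0.0231), where 2228 of 16594 genes were, and without both libraries numbered 3 (limma adjusted p = 0.00492), where 18.9% were. Trp53inp1 did not pass by edgeR (adjusted p = 0.190), by DESeq2 (adjusted p = 0.128) or with any other single library left out (limma adjusted p = 0.220 to 0.349). Eda2r (chromosome X, 97333840 to 97377216), a receptor of the TNF receptor family for ectodysplasin A2, was at 3523, 3188 and 2665 in CTRL and at 4074, 3992 and 4139 in FGF13cko. Its FGF13cko libraries agreed closely and exceeded CTRL, by 0.39 in log2 (limma adjusted p = 0.115, or 0.0503 under the block, and 0.0490 by DESeq2). Zmat3 (chromosome 3, 32334792 to 32366014), a zinc finger protein that binds RNA, was at 6039, 5424 and 2787 in CTRL and at 5682, 5793 and 4558 in FGF13cko. CTRL 3 was the lowest library by far, and the groups overlapped. The log2 change was 0.24 with it and -0.11 without it, and neither passed (limma adjusted p = 0.604 and 0.601).

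With the replicate block 5 of the 10 genes were higher and 1 lower, beside 16.2% and 13.9% of all genes. By edgeR 4 were higher (7.06% of all genes), and by DESeq2 5 (11.9%). Of the 10, 4 have an adjusted p under 0.05 in the authors' deposited table. Over all genes 3444 of the 20641 with an adjusted p there do, in either direction. The 4 are Ccng1, Phlda3, Mdm2 and Sesn2, with adjusted p of 0.000325, 0.000532, 0.00239 and 0.0136 in the authors' deposited table.

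**Figure D2:**
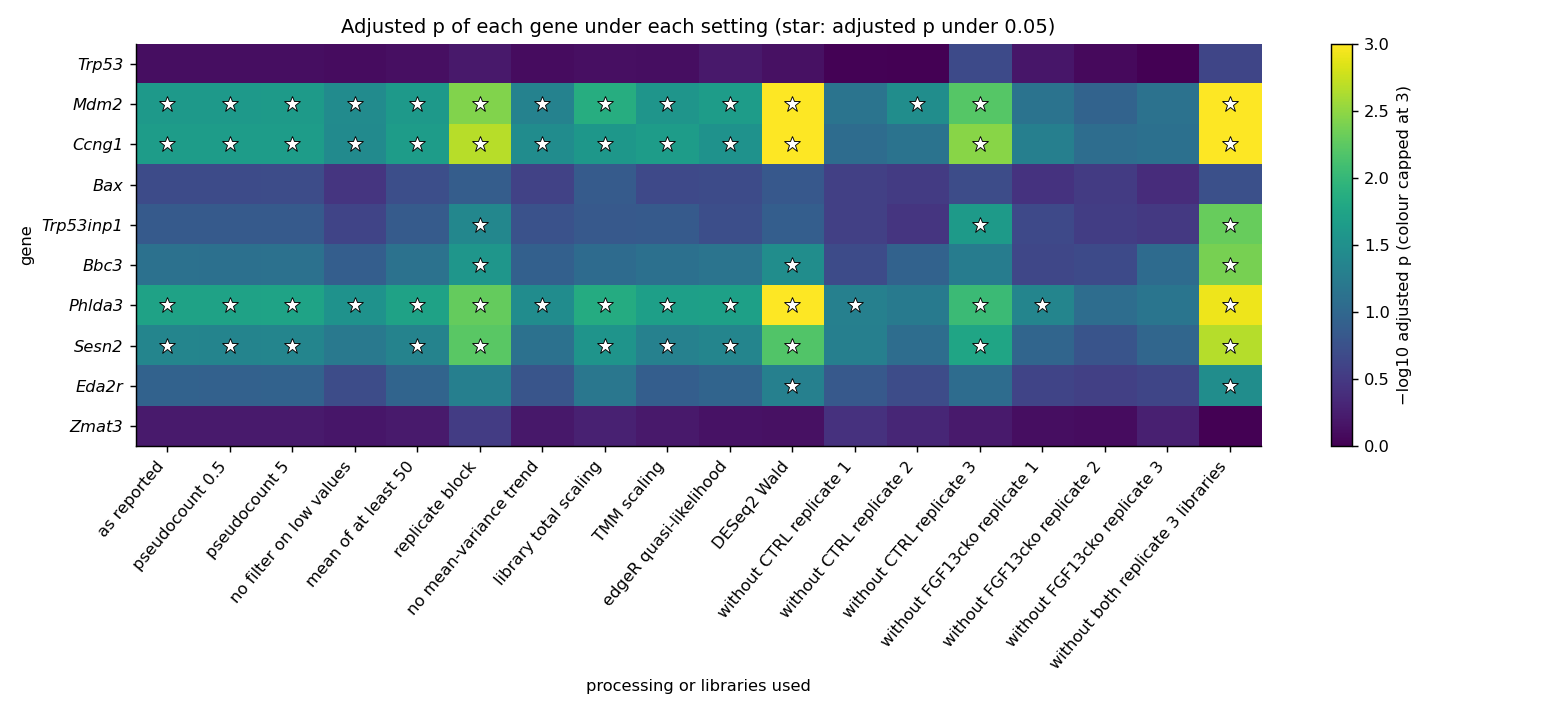
Adjusted p of each of the 10 genes (rows) as reported and under each other setting or set of libraries (columns), shown as −log10 with the colour capped at 3 and a star where it is under 0.05. Mdm2, Ccng1, Phlda3 and Sesn2 carry stars in most columns, and each loses its star in some of the columns that leave out a library other than CTRL 3. Trp53, Bax and Zmat3 carry none.

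Because both libraries numbered 3 were low in Trp53, each target was also expressed as a ratio to Trp53 within its library. The ratio of Mdm2 to Trp53 normalized counts was 1.32, 1.40 and 1.31 in CTRL and 2.18, 2.46 and 2.64 in FGF13cko. On this ratio the CTRL libraries lay close together, and the mean ratio was 1.81-fold higher in FGF13cko. For Sesn2 the ratio was 1.45, 1.16 and 1.12 in CTRL and 1.97, 2.42 and 2.35 in FGF13cko. For Ccng1 it was 4.43, 3.98 and 7.34 in CTRL and 7.98, 9.24 and 13.2 in FGF13cko, so CTRL 3 stood apart and the groups were separate by a narrow margin. For Trp53inp1, at 3.51, 2.91 and 5.49 in CTRL and 4.53, 5.20 and 6.77 in FGF13cko, CTRL 3 stood apart as well and the groups overlapped. Of the 9 ratios, 6 were higher in every FGF13cko library (Mdm2, Ccng1, Bax, Phlda3, Sesn2 and Eda2r) and 3 overlapped (Trp53inp1, Bbc3 and Zmat3). Of all 16851 other tested genes, 24.5% had a ratio to Trp53 that was higher without overlap, and Trp53 itself was slightly lower in the FGF13cko mean, which raises every ratio there. The ratio of Bbc3 was between 1.28 and 2.00 in CTRL and at 0.908, 1.22 and 1.54 in FGF13cko, so the separation of Bbc3 did not hold relative to Trp53. The ratios compare libraries, not genes, since transcripts differ in length, and they are given without a test.

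**Figure D3:**
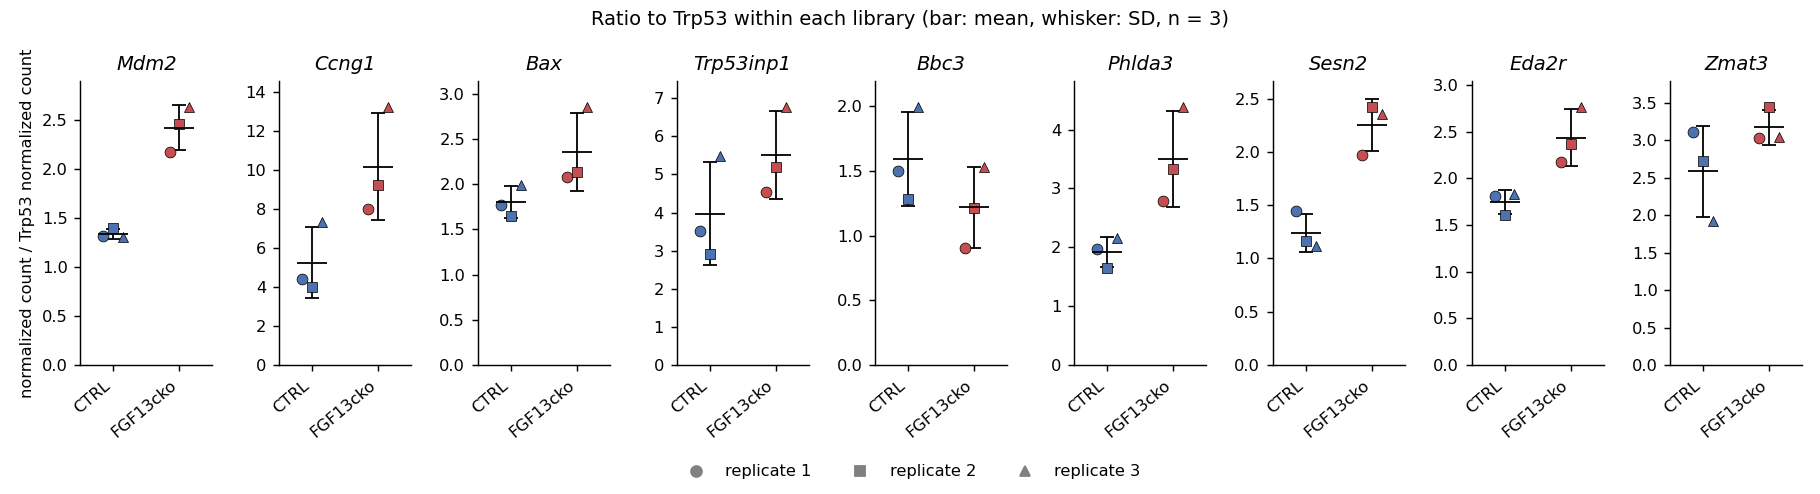
Normalized count of each of the 9 other genes divided by that of Trp53 in the same library (vertical axes, starting at 0), for 3 CTRL and 3 FGF13cko libraries, with a bar at the mean and whiskers of 1 SD. The Mdm2 ratio lies at 1.31 to 1.40 in CTRL and at 2.18 to 2.64 in FGF13cko.

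Per kilobase of merged exons, Ccng1, Phlda3 and Bax were the most abundant in CTRL at 2582 ± 408, 2188 ± 241 and 2034 ± 178 normalized counts per kilobase (SD, n = 3). Neighbours among these 3 differed by less than the larger of their SDs. Bbc3 (1315 ± 97.3) and Trp53inp1 (1061 ± 171) followed, farther apart than their SDs. Sesn2 (647 ± 172), Eda2r (531 ± 73.5), Mdm2 (476 ± 90.9), Trp53 (444 ± 73.5) and Zmat3 (415 ± 151) formed a lower group whose neighbours differed by less than their SD. In FGF13cko the per-kilobase level of Ccng1 was 4776 ± 751 and that of Phlda3 3718 ± 442. Mdm2, at 798 ± 20.2, then exceeded Trp53 at 417 ± 46.9 normalized counts per kilobase, where the 2 had been level in CTRL. Merged exons overstate the length of genes with alternative ends, so this order is approximate.

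The other p53 targets were listed by function. Among 10 genes of cell death, 5 rose and none fell, beside 7.55% and 7.08% of all genes. The median log2 change of the 10 was 0.95. None of the 10 was lower at an unadjusted limma p under 0.05, by edgeR or by DESeq2. Perp, a membrane protein of cell junctions, was at 54.9, 54.3 and 68.8 normalized counts in CTRL and at 276, 353 and 493 in FGF13cko, a log2 change of 2.60 (limma adjusted p = 0.00195). Pmaip1 (Noxa), a BH3-only protein, was at 222, 232 and 202 in CTRL and at 764, 800 and 1037 in FGF13cko, a log2 change of 1.97 (limma adjusted p = 0.00144). Both exceeded every member of the 10 genes in fold change, and both passed with any single library left out. Tnfrsf10b, the mouse death receptor for TRAIL (1.13, limma adjusted p = 0.0244), Ei24, an endoplasmic reticulum protein (0.96, limma adjusted p = 0.00673), and Pidd1, a death domain adaptor (0.95, limma adjusted p = 0.00767), rose as well. Ei24 also passed with any single library left out, Pidd1 in all but 1 and Tnfrsf10b in 3 of these 6 fits. The log2 changes of the 5 others ran from -0.04 to 0.94. With the replicate block 7 of the 10 rose, where 16.2% of all genes were higher.

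Among 10 arrest and stress genes the median log2 change was 0.82. No gene was lower at an unadjusted limma p under 0.05, by edgeR or by DESeq2. By the adjusted limma test 3 rose and none fell, beside 7.55% and 7.08% of all genes. These were Plk2, a polo-like kinase (1.31, limma adjusted p = 0.0496), Sfn, the checkpoint adaptor 14-3-3 sigma (1.52, limma adjusted p = 0.0149), and Gadd45a (from 112 ± 29.1 to 223 ± 46.4 normalized counts, limma adjusted p = 0.0360). Only 42 CTRL reads and 132 FGF13cko reads stood behind Sfn, and Gadd45a shares 19.1% of its exon bases with a transcript on the opposite strand. The count of genes higher was 1 by edgeR (7.06% of all genes), 5 by DESeq2 (11.9%) and 6 with the replicate block (16.2%). With single libraries left out, Gadd45a passed in 1, Plk2 in 2 and Sfn in 3 of 6 fits. Cdkn1a (p21), the classical arrest target, was at 11263, 9749 and 5857 normalized counts in CTRL and at 15742, 16591 and 14482 in FGF13cko. Its groups did not overlap, CTRL 3 was by far the lowest, and the log2 change of 0.85 fell short of the threshold (limma adjusted p = 0.0573, 0.00708 with the replicate block).

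Repair and metabolism targets did not share this direction. Of 15 genes, 14 were tested, 1 rose and 2 fell, beside 7.55% and 7.08% of all genes. The median log2 change was -0.07, with 6 changes positive and 8 negative. The adenylate kinase Ak1 rose by 0.83 (limma adjusted p = 0.0121). The glutaminase Gls2 (log2 change -1.76, limma adjusted p = 0.0152) and the ferredoxin reductase Fdxr (-0.60, limma adjusted p = 0.0276) fell. Without CTRL 1, FGF13cko 2 or FGF13cko 3 neither passed, where 341 of 16905, 276 of 16875 and 492 of 16814 genes were called lower. Gls2 was at 257, 263 and 112 normalized counts in CTRL and at 60.0, 57.9 and 54.1 in FGF13cko, so each FGF13cko library lay below CTRL 3, the lowest of CTRL. Sesn1, the closest paralog of Sesn2, was at 1359 ± 346 in CTRL and 843 ± 136 in FGF13cko (a difference of -0.67 in log2, with a limma adjusted p of 0.0696, or 0.00721 under the block), opposite in sign to Sesn2. Sco2 was listed at 0 in all libraries, and 66.2% of its exon bases are shared with Ncaph2 and 68.3% with Tymp.

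**Figure D4:**
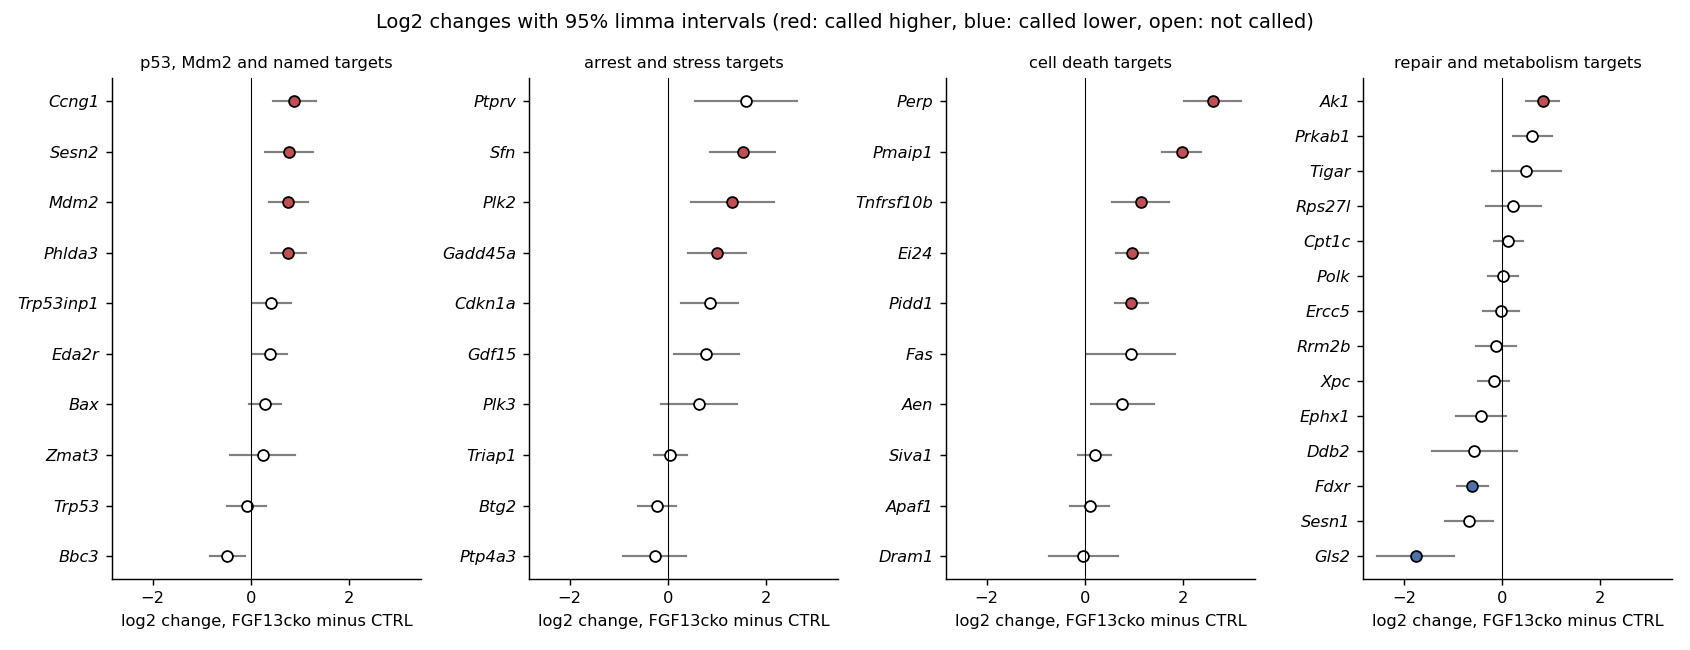
Log2 change (FGF13cko minus CTRL, horizontal axes) with the 95% limma interval for each tested gene of the 4 groups, where red marks genes called higher, blue genes called lower and open circles genes not called. Calls are 4 higher of 10 for p53, Mdm2 and the named targets, 3 of 10 for arrest and 5 of 10 for cell death. For repair and metabolism 1 of 14 is higher and 2 are lower. Over all tested genes 7.55% are called higher and 7.08% lower.

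Over the 3 lists together, 9 of 34 tested targets rose and 2 fell, beside 7.55% and 7.08% of all genes, and the median log2 change was 0.36. Without CTRL 3 the median was 0.24, with 14 targets higher, where 2228 of 16594 genes were. Without both libraries numbered 3 it was also 0.24, with 15 targets higher, where 18.9% of all genes were. The fit without FGF13cko 2 had 3 targets higher and none lower, beside 193 and 276 of 16875 genes. That without FGF13cko 3 had 4 higher and none lower, beside 431 and 492 of 16814 genes. With the replicate block 15 targets rose and 3 fell, beside 16.2% and 13.9% of all genes.

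Of 20 regulators of p53, 19 were tested, 3 rose and 1 fell, beside 7.55% and 7.08% of all genes, with a median log2 change of -0.07. Without CTRL 1, FGF13cko 2 or FGF13cko 3 only 1 rose, beside 391 of 16905, 193 of 16875 and 431 of 16814 genes. The fit without CTRL 3 had 4 higher and 4 lower, beside 2228 and 2145 of 16594 genes. Rchy1 (Pirh2), a second ubiquitin ligase of p53, rose by 0.56 (limma adjusted p = 0.0370), although 680 of its exon bases are shared with Thap6 on the opposite strand, and it passed in 1 of the 6 fits with a library left out. Ppp1r13b (ASPP1), a cofactor that directs p53 to death genes, rose by 1.26 (limma adjusted p = 0.0183). Trp73, a p53 relative with its own role in neural progenitors, was at 50.9, 56.4 and 59.7 normalized counts in CTRL and at 184, 197 and 417 in FGF13cko, a log2 change of 2.13 (limma adjusted p = 0.00738) that passed with any single library left out. Atr, a checkpoint kinase of replication stress, fell by 0.90 on the log2 scale (limma adjusted p = 0.00998). Mdm4, the partner of Mdm2, averaged 5624 ± 340 in CTRL and 4899 ± 643 in FGF13cko, a difference of -0.21 (log2) that missed the threshold (limma adjusted p = 0.394). Trp63 had 3 reads in CTRL and 7 in FGF13cko and was not tested.

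In the wider BCL2 family 4 of 12 tested genes rose and 1 fell, beside 7.55% and 7.08% of all genes. The calls were 2 higher without CTRL 1 (391 of 16905 genes) and 1 higher without FGF13cko 2 (193 of 16875 genes). None was lower in these fits or without FGF13cko 3, beside 341 of 16905, 276 of 16875 and 492 of 16814 genes. Besides Pmaip1, the genes that rose with all libraries were the death inhibitors Bcl2l1 (0.93, limma adjusted p = 0.00723) and Mcl1 (0.86, limma adjusted p = 0.0138). The BH3-only gene Bid (0.87, limma adjusted p = 0.0117) rose too. With 1 library left out, Bcl2l1 passed in 5, Bid in 4 and Mcl1 in 3 of 6 fits. Bid shares 17.7% of its exon bases with Bcl2l13 on the opposite strand. Bok, an effector related to Bax, fell by 0.69 (limma adjusted p = 0.0283) and passed in 2 of these 6 fits.

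Of 13 paralogs and ligands of the 10 genes that could be tested, 2 rose and 2 fell (median log2 change -0.06), beside 7.55% and 7.08% of all genes. With the replicate block 5 rose and 3 fell, beside 16.2% and 13.9% of all genes. In the fit without CTRL 3 the count higher was 5, beside 2228 of 16594 genes. Without CTRL 1 or FGF13cko 2, 1 rose and 1 fell, beside 391 and 341 of 16905 genes and 193 and 276 of 16875 genes. Ccng2, the paralog of Ccng1, fell from 2410 ± 221 to 1007 ± 70.3 normalized counts (log2 change -1.26, limma adjusted p = 0.0027), while Phlda1, related to Phlda3, rose from 165 ± 64.2 to 479 ± 82.6 (1.59, limma adjusted p = 0.0142). Trp73 and Bok were the other two, described above. Trp53inp2, the paralog of Trp53inp1, was at 4733, 4715 and 2778 normalized counts in CTRL and at 6519, 7374 and 6627 in FGF13cko, higher in each library by 0.79 in the mean (log2) with a limma adjusted p of 0.0521, or 0.00757 under the block. Eda, which encodes the ligand of Eda2r, averaged 70.5 ± 12.3 in CTRL and 130 ± 33.4 in FGF13cko, a difference of 0.86 (log2) that missed the threshold (limma adjusted p = 0.0722).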

How the data were processed

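RNA of 6 neurosphere libraries was sequenced from NEBNext Ultra libraries, per the labels' protocols, a kit that in its standard form does not mark strand. Each mouse filled 2 culture wells. The submitters' processing notes name STAR, DESeq2 and mm10; which annotation and counter were used is not given in the sources used here. Per the file headers the authors deposited normalized values, a signal that equals each gene's count over 1 size factor for its library, from which whole reads were recovered: 100% of values lay within 0.01 of a whole read. The authors' deposited table of log2 fold changes and p-values is quoted only where named; the score it also holds, the Wald statistic that the authors deposited, was not used.

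Genes with a mean normalized count of at least 10 (16852) were tested with limma 3.58.1 (run in R 4.3.3) after adding 1 and taking log2, in a model of genotype alone with a mean-variance trend and Benjamini-Hochberg adjustment (2-sided, threshold 0.05). edgeR 4.0.16 and DESeq2 1.42.0 on recovered reads, other pseudocounts, filters and scalings, the replicate block and libraries left out were alternatives. Labels do not say that each library is a separate animal, so p-values measure the spread between these libraries, which may be technical. Deviations from the group means of same-numbered libraries correlated at 0.36, 0.20 and 0.54, so a fit with the number as a block is given as an alternative. Libraries 1 and 2 were not told apart by this (CTRL 2 with FGF13cko 1 0.33, CTRL 1 with FGF13cko 2 0.26), and the labels do not say what a number marks. A count of 3 reads corresponds to 2.89 to 3.05 normalized counts.

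The genes and lists were chosen with earlier results of these data known. Named were all 10 genes, Fgf13, Cdkn1a, Pmaip1, Mdm4, list genes past the threshold and the 3 closest profiles to Trp53 and to Ccng1; Sesn1, Eda, Sco2, Trp63, Trp53inp2 and Lum were added after their values were seen. Where a symbol had several IDs, that with the higher mean was used. Coordinates and exon lengths are from GENCODE M21 on GRCm38. Without strand, reads from 2 genes that overlap in opposite orientation cannot be told apart.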

Additional observations from a re-analysis of the deposited data

How the results depend on the processing

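Over all genes the limma count of 2465 became 5064 with the replicate block, 3971 by DESeq2 and 6145 without both libraries numbered 3, and 469 to 4373 with 1 library left out. Of the 10 genes, 4 were higher, and 0 to 5 with 1 library left out. None was lower, but 1 (Bbc3) was with the replicate block, 1 by DESeq2 and 1 without both libraries numbered 3. Of the other p53 targets 9 were higher, 15 with the replicate block, 15 without both libraries numbered 3 and 3 to 14 with 1 left out. The 2 lower ones became 4 without both libraries numbered 3 and 0 to 3 with 1 left out. Their median log2 change of 0.36 was 0.24 without both and 0.24 to 0.42 with 1 left out. The cause was not tested. Sesn2 did not pass without the filter on low values (limma adjusted p = 0.0607) or without the mean-variance trend (limma adjusted p = 0.0760). Zmat3 changed sign without CTRL 3 (-0.11) and was called in neither fit. Other pseudocounts and scalings left the count of the 10 genes at 4. With 3 libraries a group, changes as small as that of Bax (0.29, SE 0.14) lay within the limma interval around 0.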
